A study of Homo sapiens with 33 samples.

Results

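The baseline transcriptome was compared between the RB-inactive mesothelial lines MPP89 and MeT-5A and the RB-functional mesothelioma lines H2052, H2452, H28 and MSTO-211H, all established human cell lines kept without palbociclib. The control libraries number 15 of the 33 RNA-seq libraries of the series. The 4 RB-inactive libraries are 2 of MPP89 in DMSO, 1 of MeT-5A in DMSO and 1 of MeT-5A left untreated. The 11 RB-functional libraries, all in DMSO, are 2 of H2052, 3 of H2452, 3 of H28 and 3 of MSTO-211H. DMSO was at 0.1% for 9 days, or for 10 days in replicate 2 of H2052 and replicate 3 of the other RB-functional lines. MPP89 is a malignant pleural mesothelioma (MPM) line with a mutated RB1 and intact CDKN2A and CDKN2B. MeT-5A derives from mesothelial cells immortalized by SV40, whose large T antigen binds and disables pRb, and is not a tumour line. The 4 RB-functional lines have a wild-type RB1 and have lost CDKN2A and CDKN2B. MPP89 is epithelioid, H2052 and H28 are sarcomatoid, and H2452 and MSTO-211H are biphasic. NF2 is altered in MPP89 and H2052, LATS2 in H2052 and MSTO-211H, and BAP1 in H2452 and H28. The classes therefore also differ in CDKN2A and CDKN2B, in alterations not reported here and in their response to palbociclib, and these cannot be told apart with 2 lines against 4. Each class holds independent lines, but each line is 1 genotype and its libraries share it.

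Levels are given as CP20M, the reads of a gene per 20000000 reads of its library, as deposited. Each of the 6 lines entered as the mean of its control libraries on the log2(CP20M + 10) scale. A gene was selected where the means of MPP89 and MeT-5A lay on the same side of the means of all 4 RB-functional lines, among genes that reached 100 CP20M in 1 or more control libraries. This chose 2451 genes above and 1045 genes below the RB-functional lines, of 17379 genes tested and 58302 genes in the matrix.

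The retinoblastoma protein pRb, encoded by RB1, holds E2F transcription factors in check in resting and early G1 cells. Cyclin D with CDK4 or CDK6, and then cyclin E with CDK2, phosphorylate pRb and release E2F, which turns on genes of S phase entry. Inhibitors of the INK4 family, such as p16 from CDKN2A, block CDK4 and CDK6, whereas p21 and p27 act mainly on CDK2. The related pocket proteins p107 and p130 repress cell cycle genes with E2F4 and the MuvB core, and in growing cells MuvB works with B-MYB, from MYBL2, at genes of mitosis. In mesothelioma, loss of the CDKN2A locus on chromosome 9p is frequent, whereas loss of both RB1 copies is rare.

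Libraries of the same line correlated with r of at least 0.97 over the genes tested, and libraries of different lines with r of at most 0.84. Each column adds up to about 20000000, so the totals hide the depth, and steps between low values allow only a rough estimate for 10 of the 15 control libraries, lowest for MeT-5A in DMSO at about 13020000 reads. The RB-inactive libraries had more genes at 100 CP20M or above, from 13671 to 14472 against 12717 to 13565. In MeT-5A, histone genes took 0.835% and 0.857% of the values, against 0.183% to 0.531% in the other control libraries, and the part of this difference in the results was not tested.

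The genotypes were checked first. RB1 was at 177 and 226 CP20M in MPP89, below each of the other control libraries, which had 553 to 3808 CP20M. MeT-5A kept RB1 mRNA at 2335 and 3808 CP20M, so its mRNA does not show the state of pRb that its label implies. Of the 17 mesothelial markers listed, 13 were tested, and the lines shared no full mesothelial profile. Mesothelin (MSLN) had line means of 2728 CP20M in MPP89, 129 in MeT-5A, 4256 in H2052, 1074 in H2452, only 4.33 in H28, and 650 in MSTO-211H. WT1 averaged 1 CP20M in MeT-5A and 196 to 548 CP20M in the other lines. Of 11 blood and vessel markers listed, 4 reached the filter. CD68 had line means of 147 CP20M in H28 to 1159 in H2452. CD14, KDR and PECAM1 reached at most 361, 123 and 120 CP20M in a control library. CD3E was at 0 in every control library, and HBA1 and HBB reached 4 and 3 CP20M at most.

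The 2451 genes above the RB-functional lines were 14.1% of those tested, and the 1045 genes below were 6.01%. Complete separation of the 15 libraries was rarer. All 4 RB-inactive libraries lay above all 11 RB-functional libraries for 1165 genes (6.7%) and below them for 382 genes (2.2%). Most gaps between the nearest lines were narrow, with medians of 0.31 above and -0.21 below on the log2 scale. The gap was under 0.1 on this scale for 478 of the genes above, and it was wider than 2-fold on the CP20M + 10 scale for 346 genes above and 49 genes below. The spindle checkpoint gene MAD2L1 was just inside the rule, at a gap of 0.00 on the log2 scale between MPP89, with a plain mean of 1054 CP20M, and H28, with 1063. The INK4 inhibitor CDKN2C was just outside, as MPP89 with 1003 and 1080 CP20M overlapped H2452 with 1258, 1001 and 962. The limma test on the 6 line means called 12 genes higher (0.069%) and 0 genes lower (0%) at an adjusted p under 0.05 and a fold above 1.5, and 1502 genes had an unadjusted p under 0.05. An exact permutation test over the 15 choices of 2 lines from 6 cannot go below p = 0.0667.

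The split between higher and lower genes depended on the scaling. All genes tested had a median difference of 0.18 on the log2 scale between RB-inactive and RB-functional lines. Of the separated genes, 70.1% lay above with the deposited scaling, 47.3% with median-of-ratios scaling and 30.9% with upper-quartile scaling, at median differences of -0.02 and -0.18. Under all 3 scalings, 1099 genes stayed above and 1045 genes stayed below. Both other scalings lowered the RB-inactive lines relative to the RB-functional lines, so the genes below had to stay below and this is no test of them. The filter also favours separated genes, since 546 of the 2451 genes above reached 100 CP20M in RB-inactive libraries alone, and 154 of the 1045 below in RB-functional libraries alone. A difference near 0.18 is thus that of a middle gene, and counts of genes above should be set against 14.1%.

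Among the 19 pocket protein, E2F and MuvB genes, 6 lay above the RB-functional lines (31.6%, beside 14.1% of all genes) and 0 below. MYBL2, which encodes B-MYB, was at 3704 and 2865 CP20M in MPP89 and at 19106 and 19039 in MeT-5A. The RB-functional libraries ranged from 173 in MSTO-211H to 2417 in H28, with a median of 1095 CP20M. All RB-inactive libraries were above all RB-functional ones, and MeT-5A stood far above MPP89. The class difference of MYBL2 was 2.98 ± 0.84 on the log2 scale (SE, 6 lines), with a limma adjusted p of 0.464.

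E2F1, an activating E2F and itself an E2F target, was at 1462 and 1137 CP20M in MPP89 and at 5741 and 4599 in MeT-5A, against 125 to 1591 in the RB-functional libraries. Its line means separated by 0.22 on the log2 scale, but H2052 replicate 1 with 1591 CP20M was above MPP89, so the libraries overlapped. E2F2 was at 409 and 411 CP20M in MPP89 and at 1326 and 1355 in MeT-5A, with 404 as the highest RB-functional library, in H28. With upper-quartile scaling E2F1, E2F2, LIN37 and LIN54 did not separate the lines, and 2 genes of this list stayed above. The MuvB subunit LIN52 had 351 and 379 CP20M in MPP89 and 469 and 467 in MeT-5A, and 48 to 165 in the RB-functional libraries. LIN52 had the widest gap of this list, 2.5-fold on the CP20M + 10 scale, and a difference of 1.90 ± 0.51 (limma adjusted p = 0.452). LIN37 and LIN54 lay above in every library by smaller gaps, 0.43 and 0.29 on the log2 scale.

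RBL1 (p107), a further E2F target, reached 3215 and 3241 CP20M in MeT-5A but 828 and 875 in MPP89, within the RB-functional range of 212 to 1022 CP20M. RBL2 (p130) was at 895 and 1135 CP20M in MPP89, at 2302 and 1934 in MeT-5A and from 1142 to 5142 in the RB-functional libraries, and its difference of -0.52 turned to 0.01 without MPP89. E2F3, E2F4, E2F5, E2F6, E2F7, E2F8, TFDP1, TFDP2, LIN9 and RBBP4 did not separate the lines either, with class differences from -0.25 for E2F4 to 1.24 for LIN9. Under all 3 scalings, MYBL2 and LIN52 were the members above. The plot of regulators by library shows the levels of RB1, E2F1, MYBL2 and the cyclins.

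**Figure D1:**
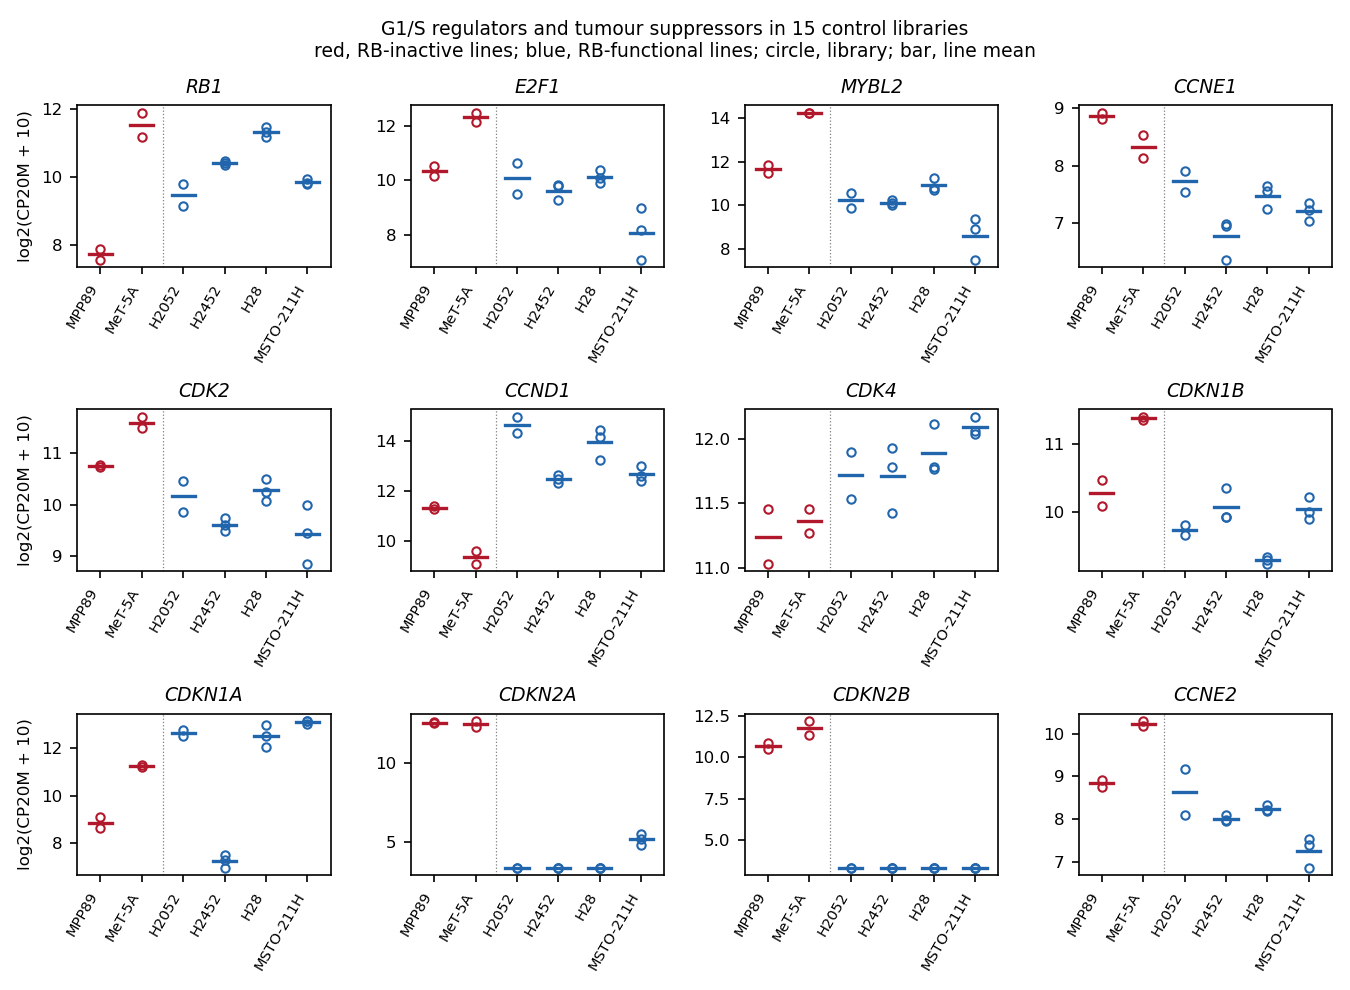
Levels of 12 regulators as log2(CP20M + 10) in the 15 control libraries, 1 panel per gene with its own axis, lines on the horizontal axis; circles are libraries and bars line means. RB-inactive lines (red) lie above all RB-functional lines (blue) for E2F1, MYBL2, CCNE1, CCNE2, CDK2, CDKN1B, CDKN2A and CDKN2B and below them for CCND1 and CDK4, while RB1 and CDKN1A overlap.

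Promoters of E2F1, E2F2 and of the polymerase epsilon subunit gene POLE2 are shown because these genes lay above the RB-functional lines and carry an E2F motif. The windows span 250 bases before to 50 bases after the start, from RefSeq on GRCh38.p14, on the strand of the gene, at chr20:33686336-33686635, chr1:23531184-23531483 and chr14:49688165-49688464 (all on the minus strand). Capitals mark matches to TTTCCCGC, TTTCGCGC, TTTGCCGC or TTTGGCGC on either strand.
E2F1: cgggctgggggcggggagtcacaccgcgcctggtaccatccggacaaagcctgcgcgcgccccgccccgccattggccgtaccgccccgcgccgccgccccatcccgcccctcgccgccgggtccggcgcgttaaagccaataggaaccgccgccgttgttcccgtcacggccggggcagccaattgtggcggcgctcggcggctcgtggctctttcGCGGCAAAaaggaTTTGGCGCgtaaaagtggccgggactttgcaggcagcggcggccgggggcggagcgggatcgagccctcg
E2F2: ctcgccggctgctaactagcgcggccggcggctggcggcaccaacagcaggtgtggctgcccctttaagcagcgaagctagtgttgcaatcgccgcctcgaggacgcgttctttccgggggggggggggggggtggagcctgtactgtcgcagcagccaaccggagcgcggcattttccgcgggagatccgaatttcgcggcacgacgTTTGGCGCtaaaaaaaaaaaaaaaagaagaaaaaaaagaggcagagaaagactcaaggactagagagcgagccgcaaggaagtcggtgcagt
POLE2: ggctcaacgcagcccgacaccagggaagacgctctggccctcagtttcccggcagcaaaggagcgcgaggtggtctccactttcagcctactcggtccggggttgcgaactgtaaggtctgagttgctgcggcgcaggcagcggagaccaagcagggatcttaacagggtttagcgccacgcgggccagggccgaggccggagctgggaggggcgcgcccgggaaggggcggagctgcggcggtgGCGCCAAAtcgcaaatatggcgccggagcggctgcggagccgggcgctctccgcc
E2F1 has 2 matches, and E2F2 and POLE2 have 1 each. Of the 17353 gene symbols tested, 11085 had a promoter in the RefSeq table. The motif was in 3.33% of all 27305 promoters in that table and in 5.21% of those of genes tested. It was in 50% of the 30 promoters of the S phase entry list, 43.5% of the 23 of the replication list, 13% of the 23 of the mitotic list and 0 of the 10 of the G1 list. Among list members above, it was in 5 of 9 S phase entry, 1 of 6 replication and 0 of 8 mitotic promoters. Over all genes the share hardly moved with the class difference, with 5.86% of the 1535 promoters of genes above, 4.32% of the 694 of genes below and 5.16% of the rest. A match is a string of letters and not a measured site.

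Of the 15 G1 cyclin, CDK and inhibitor genes, 7 lay above the RB-functional lines (46.7%, beside 14.1% of all genes). Below them lay 2 (13.3%, beside 6.01%). CDKN2A and CDKN2B, among those above, reached the filter in RB-inactive libraries alone. CCND1, the cyclin D1 gene, was at 2656 and 2492 CP20M in MPP89 and at 767 and 535 in MeT-5A. The RB-functional libraries ranged from 5066 in H2452 to 31753 in H2052, with a median of 8101 CP20M. No library overlapped, and the difference of -3.09 ± 0.78 on the log2 scale (limma adjusted p = 0.444) made it 8.49-fold lower in the RB-inactive lines on the CP20M + 10 scale. CDK4 lay below as well, by -0.55 ± 0.28, but MPP89 with 2800 and 2086 CP20M and MeT-5A with 2807 and 2469 overlapped H2452, whose lowest library had 2742. CCND2 was at 4 or 5 CP20M in the RB-inactive libraries and did not separate the lines, because H2452 had 8, 2 and 3 CP20M, although MSTO-211H reached 2253. CCND3 and CDK6 overlapped between the classes, with differences of 0.58 and 0.07.

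The partners that act after cyclin D lay on the opposite side. CDK2 was at 1690 and 1738 CP20M in MPP89 and at 2847 and 3328 in MeT-5A, against 452 to 1444 in the RB-functional libraries, a difference of 1.30 ± 0.41 (limma adjusted p = 0.49). CCNE1 lay above in every library by 1.30 ± 0.47, and its lowest RB-inactive library, at 269 CP20M, was the untreated MeT-5A. CCNE2 had 421 and 472 CP20M in MPP89 and 1142 and 1248 in MeT-5A, with 566 in 1 library of H2052 inside that range. CDK2 and CCNE1 lay above under all 3 scalings. CCNE2 lay above with median-of-ratios but not with upper-quartile scaling.

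Among the inhibitors, CDKN1B, which encodes p27, lay above on line means by 1.04 ± 0.43, chiefly in MeT-5A with 2612 and 2687 CP20M, while MPP89 with 1082 and 1409 overlapped H2452 and MSTO-211H, and CDKN1B did not separate the lines with upper-quartile scaling. CDKN1C (p57) was at 456 and 433 CP20M in MPP89 and at 438 and 292 in MeT-5A, against 28 to 302 in the RB-functional libraries. CDKN1A, the p53 target that encodes p21, was at 532 and 381 CP20M in MPP89 and at 2347 and 2518 in MeT-5A. Its RB-functional lines were split, with 112 to 169 CP20M in H2452 and 4222 to 9192 in the other lines. CDKN2C (p18) and CDKN2D (p19) had differences of 1.77 and 1.15 and did not separate the lines.

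Both INK4 genes of chromosome 9p followed the genotypes. CDKN2A (chr9:21967752-21995301) was at 6300 and 5967 CP20M in MPP89 and 5120 and 6627 in MeT-5A. MSTO-211H had 34, 26 and 18 CP20M, and the gene was listed at 0 in the other RB-functional lines. CDKN2B (chr9:22002903-22009305), the p15 gene, was at 1451 and 1880 CP20M in MPP89 and at 2622 and 4710 in MeT-5A, and was listed at 0 in all 11 RB-functional libraries. Both were called by limma (adjusted p = 0.0143 for each).

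The mRNA of neighbouring genes differed between the lines. Of 11 genes listed from this stretch of chromosome 9p, 10 were tested, and 5 lay above (50%, beside 14.1% of all genes) and 0 below. All 5 reached the filter in RB-inactive libraries alone. MTAP, the methionine salvage enzyme next to CDKN2A, was at 0 in both libraries of H2052 and at 2, 0 and 0 CP20M in H2452. It was detected in H28 (1188 to 1198 CP20M) and MSTO-211H (1274 to 1816 CP20M), close to MPP89 with 1285 and 1497. On the other side, CDKN2B-AS1 was at 72, 97 and 87 CP20M in MSTO-211H and at 0 in the other RB-functional lines, against 169 to 345 in the RB-inactive libraries. CDKN2B-AS1 overlaps CDKN2A and CDKN2B on the opposite strand, and the strand setting of the counting is not given in the sources used here. The transcription factor gene DMRTA1 was at 45 to 58 CP20M in H28, at 0 in the other RB-functional lines and at 101 to 206 in the RB-inactive libraries. ELAVL2, a neuronal RNA-binding protein gene, was at 595 and 886 CP20M in MPP89 and 522 and 363 in MeT-5A, and at 0 to 5 in the RB-functional libraries (limma adjusted p = 0.0541). KLHL9, FOCAD, HACD4 and MLLT3, on the telomeric side, were detected in every line and did not separate them.

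Of 34 E2F targets of S phase entry, 10 lay above and 1 below, and the median difference was 0.78 beside 0.18 for all genes. Of 26 replication genes, 7 lay above and 0 below (median 0.87). Of 29 mitotic genes, 11 lay above and 0 below (median 0.88), and of 20 homologous recombination and Fanconi genes, 6 lay above and 0 below (median 1.08). limma called 0 of these genes. These shares, from 26.9% to 37.9%, compare with 14.1% of all genes tested. The class mean was higher in the RB-inactive lines for all 26 replication genes, all 29 mitotic genes and all 20 recombination genes with the deposited scaling, beside 60.2% of all genes. With upper-quartile scaling, under which 6.5% of all genes lay above at a median of -0.18, the numbers above were 5, 1, 3 and 1. The shares of the replication and recombination lists were then below that of all genes, while the list medians ranged from 0.40 to 0.71.

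MeT-5A stood farther from the RB-functional lines than MPP89 in these lists. For the E2F targets its median over the RB-functional mean was 1.39 on the log2 scale and that of MPP89 was 0.19. For the replication genes these were 1.27 and 0.49, and for the mitotic genes 1.29 and 0.52. Cyclin A2 (CCNA2), which drives S phase with CDK2, was at 2178 and 1999 CP20M in MPP89 and 2929 and 3665 in MeT-5A, against 871 to 1929 in the RB-functional libraries. UBE2C, the ubiquitin-conjugating enzyme of the anaphase-promoting complex, was at 2499 and 2450 CP20M in MPP89 and 4809 and 5186 in MeT-5A, against 276 to 1906. In both genes every RB-inactive library was above every RB-functional library.

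POLE2 was at 217 and 264 CP20M in MPP89 and 592 and 472 in MeT-5A, with an RB-functional range of 56 to 164. GMNN, which encodes the licensing inhibitor geminin, was at 970 to 1413 CP20M in the RB-inactive libraries and at 171 to 707 in the others. XRCC3, a gene of homologous recombination, had 1527 and 1450 CP20M in MPP89 and 3232 and 1940 in MeT-5A, against 354 to 922, and the difference was 1.59 ± 0.36 (limma adjusted p = 0.376). XRCC3 and POLE2 both lie on chromosome 14, whose genes are described as a group further on. The 1 E2F target below was SLBP, the histone mRNA-binding protein gene, with means of 1174 CP20M in MPP89 and 1169 in MeT-5A, and 1261 to 1694 in the others.

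**Figure D2:**
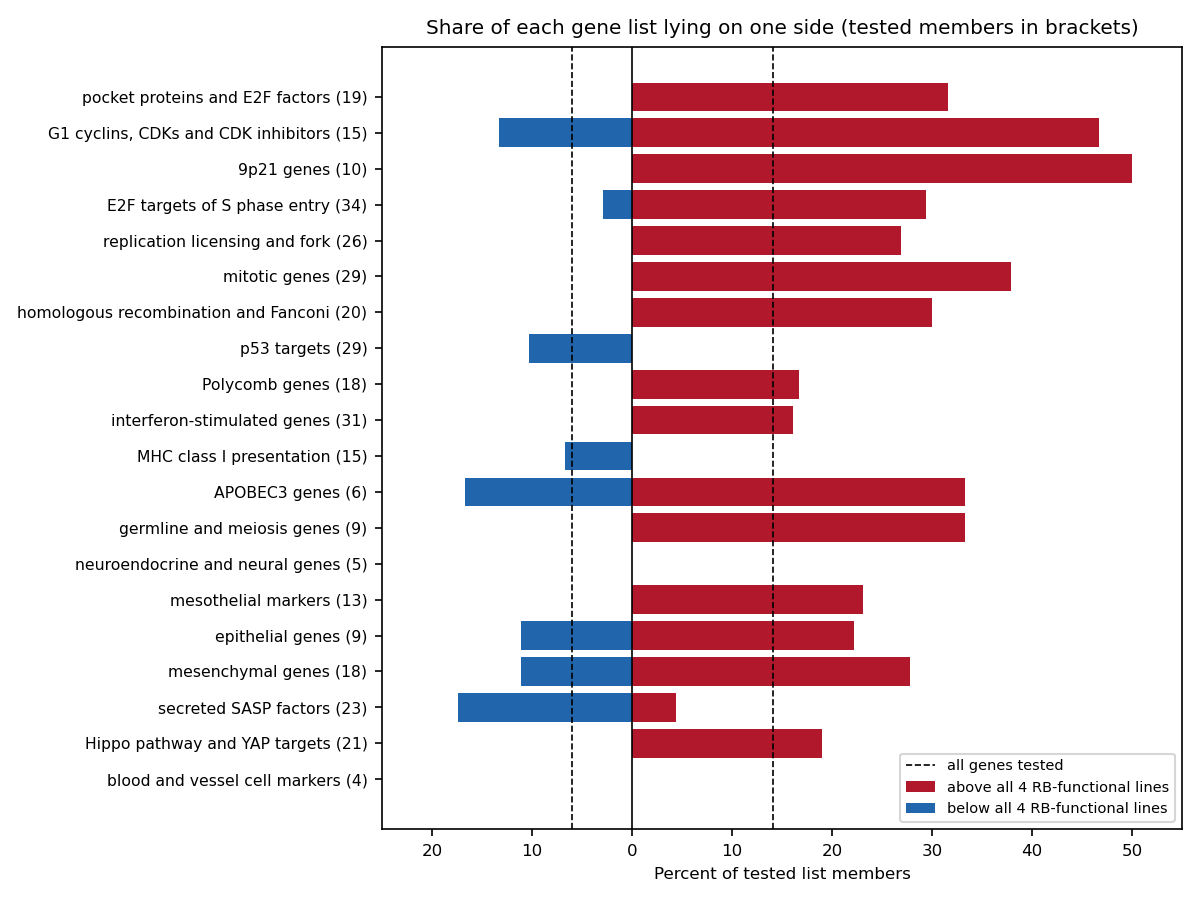
Percent of the tested members of each of the 20 gene lists whose RB-inactive line means lie above (red, to the right) or below (blue, to the left) all 4 RB-functional line means; dashed lines mark 14.1% and 6.01%, the shares of all genes tested. The lists farthest past the right line are the 9p21 genes (50%), the G1 genes (46.7%) and the mitotic genes (37.9%), and those farthest past the left line are SASP factors (17.4%), APOBEC3 genes (16.7%) and the G1 genes (13.3%). All 5 of the 9p21 genes above reached the filter in RB-inactive libraries alone. Among them are CDKN2A and CDKN2B, which also count among the G1 genes. All 4 SASP factors and the 1 APOBEC3 gene below reached it in RB-functional libraries alone. These shares are therefore not evidence on those lists.

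Of 29 p53 targets tested, 0 lay above and 3 below, and most did not separate the lines. The median difference was -0.70, and 23 members had a lower class mean in the RB-inactive lines (79.3%, beside 39.8% of all genes). The share below was 10.3%, beside 6.01% of all genes, and 2 of the 3 reached the filter in RB-functional libraries alone. PLK2, a stress-induced kinase, was at 5755 and 5141 CP20M in MPP89 and 2772 and 2547 in MeT-5A, against 10034 to 37957 in the RB-functional libraries, a difference of -2.14 ± 0.48 (limma adjusted p = 0.376). GDF15, a secreted stress cytokine, was at 95 and 19 CP20M in MPP89 and 64 and 19 in MeT-5A, and at 3891 to 5405 in MSTO-211H and 4825 to 5207 in H28. H2452 had 133, 26 and 423 CP20M of GDF15 and overlapped the RB-inactive lines. EDA2R was the other member below, with H2452 nearest at a mean of 22.7 CP20M. The list median of H2452, at most 8.17 on the log2(CP20M + 10) scale, was below those of MPP89 (8.61 and 8.82) and MeT-5A (9.07 and 9.13), and the other RB-functional libraries had 9.12 to 10.8. MDM2, BBC3, BAX, FDXR and the other members did not separate the classes.

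Of 23 secreted factors of the senescence-associated secretory phenotype (SASP), 1 lay above and 4 below (17.4%, beside 6.01% of all genes), with a median difference of -1.35. All 4 reached the filter in RB-functional libraries alone, so their count is not evidence on the list. The chemokine CXCL8 (interleukin 8) was at 6 and 3 CP20M in MPP89 and 4 and 0 in MeT-5A, against 18 to 1354 in the RB-functional libraries. CXCL1 had 11 and 28 CP20M in MPP89 and 7 and 2 in MeT-5A, and its RB-functional range of 15 to 130 overlapped. CXCL3 and GDF15 were the others below. IGFBP5, an insulin-like growth factor binding protein, went the other way, with 18902 and 37917 CP20M in MPP89 and 10523 and 6209 in MeT-5A, against 0 to 829 in the RB-functional libraries.

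The 12 genes that limma called higher were CDKN2A, CDKN2B, MYH14, CARMN, FBLN2, AC117402.1, ACTG2, OLR1, HSPA2, TLL1, H19 and SERPINB9. MYH14, a non-muscle myosin heavy chain gene (chr19:50188186-50310542), was at 2173 and 1910 CP20M in MPP89 and 1560 and 1813 in MeT-5A. It was at 0 in 10 of the 11 RB-functional libraries and at 1 CP20M in H28 replicate 3 (limma adjusted p = 0.0143). CARMN, a long non-coding RNA of smooth muscle (chr5:149406689-149432835), was at 1316 and 1380 CP20M in MPP89 and 4960 and 1922 in MeT-5A, against 0 to 3 in the RB-functional libraries. FBLN2, the matrix protein fibulin 2 (chr3:13549125-13638422), was at 3066 and 2639 CP20M in MPP89 and 5171 and 5249 in MeT-5A, against 3 to 41. The differences of these 3 genes were 7.53 ± 0.56, 7.57 ± 0.62 and 7.67 ± 0.55 on the log2(CP20M + 10) scale (SE, 6 lines), sizes that the added 10 limits.

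HSPA2, a testis-enriched heat shock protein gene, was at 2647 and 1845 CP20M in MPP89 and 3753 and 3440 in MeT-5A, against 6 to 105. OLR1, a scavenger receptor for oxidized low-density lipoprotein, was at 2710 and 4299 CP20M in MPP89 and 1594 and 1062 in MeT-5A, against 2 to 49. The limma adjusted p was 0.0468 for both. SERPINB9, an inhibitor of granzyme B, was at 746 and 1038 CP20M in MPP89 and 2609 and 2122 in MeT-5A, and at 0 to 24 in the RB-functional libraries (limma adjusted p = 0.0489). TLL1, a procollagen-processing protease gene, was at 931 to 1805 CP20M in the RB-inactive libraries and 0 to 47 in the others. AC117402.1 was at 5661 and 4996 CP20M in MPP89 and 1680 and 831 in MeT-5A, against 1 to 13, and its identifier ENSG00000206532 had no match in the GENCODE 44 annotation. All 12 genes lay above in every library. Apart from HSPA2, they reached the filter of 100 CP20M in RB-inactive libraries alone, so they entered the test through the side where they are high. Of the 12 genes, 5 (CDKN2A, CDKN2B, MYH14, CARMN and FBLN2) were called in 28 of 33 alternative fits. HSPA2 was called in 24, AC117402.1 in 22, OLR1 in 19, ACTG2 in 18, TLL1 in 16, H19 in 15 and SERPINB9 in 14 of the 33. Leaving out MSTO-211H replicate 1 left 7 calls. Of the 33 fits, 15 only left out 1 library, and some were fits over libraries, so the tally is not a measure of robustness. limma called 0 genes higher with a pseudocount of 1, and 0 without H2052 or without H2452. The calls thus depended on single lines and on the added constant.

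**Figure D3:**
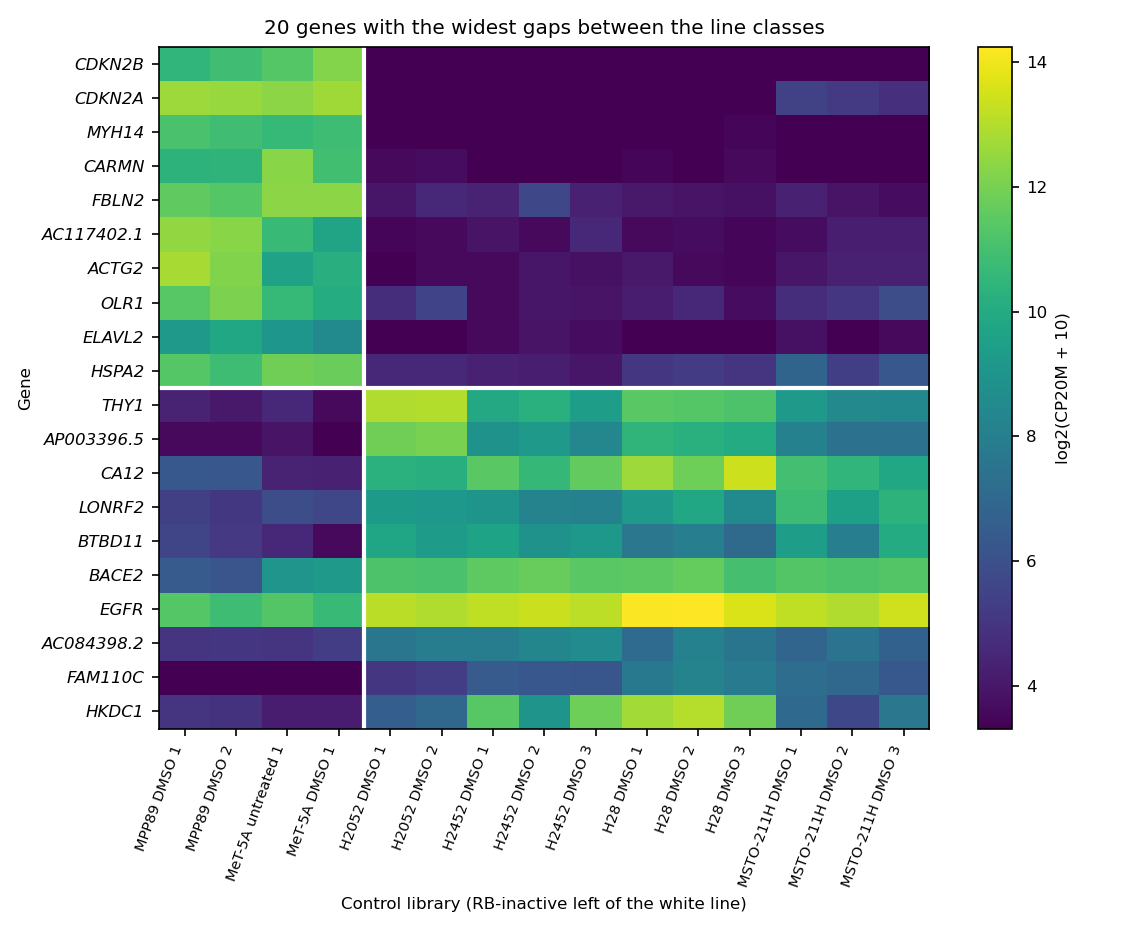
Colour map of log2(CP20M + 10) for the 10 genes with the widest gap above and the 10 with the widest gap below among genes that separate every control library; columns are the 15 libraries, with the RB-inactive ones left of the vertical white line. CDKN2B, MYH14 and CARMN are at or near 0 CP20M in the RB-functional libraries, and FAM110C is at 0 in the RB-inactive ones.

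H19, an imprinted maternal non-coding RNA, was at 536 and 1407 CP20M in MPP89 and 444 and 1741 in MeT-5A, against 4 to 45 in the RB-functional libraries (limma adjusted p = 0.0468). After this value was seen, 6 other imprinted genes were looked up. PEG3 was at 285 and 354 CP20M in MPP89 and 184 and 716 in MeT-5A, and at 0 to 9 in the others, and CDKN1C lay above as given. IGF2, the partner of H19 on chromosome 11p, was at 1754 and 4236 CP20M in MPP89 but 82 and 163 in MeT-5A, and at 238 to 2130 in H28. MEG3, PEG10 and PLAGL1 did not separate the lines, and PLAGL1 was at 2 and 0 CP20M in MeT-5A and 651 and 521 in MPP89.

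CARMN and ACTG2 are genes of smooth muscle. After these values were seen, 14 further genes of its contractile apparatus or of its regulation were looked up, so their counts are a description. Of 14 genes tested among the 16, 13 lay above the RB-functional lines, and smoothelin (SMTN) overlapped. The 13 include CARMN and ACTG2, which prompted the search, so the 14.1% of all genes is no fair background for them. CARMN, ACTG2 and LMOD1 reached the filter in RB-inactive libraries alone. ACTG2, the enteric smooth muscle actin gene (chr2:73892314-73919865), was at 7181 and 4570 CP20M in MPP89 and 762 and 1169 in MeT-5A, against 0 to 10. ACTA2, smooth muscle alpha actin, was at 10453 and 8743 CP20M in MPP89 and 5353 and 8012 in MeT-5A, against 17 to 548. CNN1 (calponin) was at 10411 and 6957 CP20M in MPP89 and 507 and 464 in MeT-5A, against 1 to 110. These 3 genes separated every library, and ACTG2 and CNN1 were far higher in MPP89 than in MeT-5A.

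The order of the lines turned for other contractile genes. TAGLN (transgelin) was at 7972 and 5511 CP20M in MPP89 and 24482 and 23021 in MeT-5A, against 45 to 1695. The regulatory light chain gene MYL9 was at 9690 and 8430 CP20M in MPP89 and 29547 and 31135 in MeT-5A, with 2 to 12 in H28 and up to 4097 in H2052. MYLK, CALD1 and TPM2 also separated every library, whereas MYH11, TPM1 and LMOD1 did so on line means only, with MYH11 not under the other scalings and TPM1 not under upper-quartile scaling. SRF, the serum response factor gene, was at 1994 to 2690 CP20M in the RB-inactive libraries, against 1026 to 1464. Its coactivator gene MYOCD did not reach the filter, with 9 and 11 CP20M in MPP89, 47 and 40 in MeT-5A and 0 to 3 in the RB-functional libraries. Desmin (DES), at 78 and 84 CP20M in MPP89, did not reach it either.

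Promoters of ACTG2 and SRF are shown because these genes lay above in every library and hold a CArG box, the sequence that SRF binds. They lie at chr2:73892758-73893057 and chr6:43171019-43171318 (plus strand) of GRCh38.p14, from RefSeq, and capitals mark the CArG boxes.
ACTG2: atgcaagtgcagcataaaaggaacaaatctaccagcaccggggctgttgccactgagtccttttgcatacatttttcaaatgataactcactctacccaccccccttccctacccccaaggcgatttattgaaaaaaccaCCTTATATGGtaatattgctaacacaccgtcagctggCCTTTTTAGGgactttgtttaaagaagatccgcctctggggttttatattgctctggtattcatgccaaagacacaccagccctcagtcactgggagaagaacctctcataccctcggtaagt
SRF: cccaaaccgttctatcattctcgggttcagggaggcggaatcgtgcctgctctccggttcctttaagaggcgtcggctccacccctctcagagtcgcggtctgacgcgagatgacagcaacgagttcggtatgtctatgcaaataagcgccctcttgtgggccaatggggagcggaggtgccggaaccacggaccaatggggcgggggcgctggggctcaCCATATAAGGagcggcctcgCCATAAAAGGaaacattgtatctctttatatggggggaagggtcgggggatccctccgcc
ACTG2 and SRF have 2 boxes each. The RefSeq window of MYLK holds 1 but lies far inside the gene, near its 3′ end, and is not printed, and the window of ACTG2 also starts inside the GENCODE gene. A CArG box was in 3 of the 11 promoters matched for the contractile genes (27.3%). They are those of SRF, of MYLK and of ACTG2, which helped to prompt the search, so the share is a description. Such a box was in 1.03% of the promoters of genes tested, 1.56% of those of genes above and 1.01% of those of genes below.

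The widest gap below belonged to THY1, the surface glycoprotein CD90 of fibroblasts (chr11:119415476-119424985). It was at 11 and 7 CP20M in MPP89 and 13 and 2 in MeT-5A. The RB-functional libraries ranged from 331 in MSTO-211H to 8148 in H2052, with a median of 1221 CP20M. The difference was -6.57 ± 1.09 on the log2 scale (limma adjusted p = 0.225). AP003396.5 followed it in every library but lies within THY1 on the opposite strand, and their reads may not be told apart.

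CA12, a membrane carbonic anhydrase, was at 71 and 69 CP20M in MPP89 and 11 and 10 in MeT-5A, against 904 to 10751, with the lowest limma adjusted p of the genes below that are named here, 0.127. EGFR, the epidermal growth factor receptor gene (chr7:55019017-55211628), was at 2626 and 1821 CP20M in MPP89 and 2553 and 1642 in MeT-5A, against 7726 to 19317 with a median of 9293. No library overlapped, and EGFR was 4.97-fold lower in the RB-inactive lines on the CP20M + 10 scale (-2.31 ± 0.36, limma adjusted p = 0.175). The protease gene BACE2 was at 77 and 63 CP20M in MPP89 and 507 and 596 in MeT-5A, against 2078 to 3365. LONRF2 and BTBD11 had at most 50 and 38 CP20M in the RB-inactive libraries and at least 268 and 127 in the others. FAM110C was listed at 0 in all 4 RB-inactive libraries and at 23 to 288 CP20M in the RB-functional ones. HKDC1, a hexokinase domain gene, had 8 to 21 CP20M against 41 to 8287. AC084398.2 lies opposite DRAM1, with 21 to 30 CP20M against 96 to 374. A fit over the 15 libraries with the line as a random block called 13 genes lower, among them THY1, CA12 and BACE2, and 94 genes higher. The class varies only between lines, and libraries of a line are not replicates of a class. These calls therefore add no support beyond the line means, on which limma called 0 genes lower.

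Markers of cell identity were mixed. Of the 13 mesothelial markers tested, 3 (23.1%, beside 14.1% of all genes) lay above: CALB2 (calretinin), KRT8 and KRT18. CALB2 was at 659 and 1577 CP20M in MPP89 and 534 and 404 in MeT-5A, against 0 to 117 in the RB-functional libraries. KRT8 and KRT18 were lowest in H28, their gaps were 0.05 and 0.19 on the log2 scale, and neither separated the lines under the other scalings. KRT19, in contrast, had means of 11 CP20M in MPP89 and 1 in MeT-5A, near MSTO-211H with 6, and 4606 to 23576 in the other lines.

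Among 9 epithelial genes tested, KRT17 and CDH1 lay above (22.2%, beside 14.1% of all genes) and CLDN1 below (11.1%, beside 6.01%). Both genes above reached the filter in RB-inactive libraries alone. KRT17, a basal keratin, was at 8579 and 4825 CP20M in MPP89 and 275 and 208 in MeT-5A, against 0 to 7. CDH1 (E-cadherin) was at 783 and 1076 CP20M in MPP89 but 64 and 39 in MeT-5A, against 0 to 5. CLDN1, a tight junction gene, was at 294 and 356 CP20M in MPP89 and 152 and 79 in MeT-5A, against 631 to 6405. KRT17 and CDH1 were far higher in MPP89 than in MeT-5A.

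Of 18 mesenchymal genes, 5 lay above (27.8%, beside 14.1% of all genes) and 2 below (11.1%, beside 6.01%). THY1, 1 of those below, reached the filter in RB-functional libraries alone. COL3A1, a fibrillar collagen gene, was at 50901 and 48987 CP20M in MPP89 and 6005 and 13663 in MeT-5A. The RB-functional lines had 17 in both H2052 libraries, 132, 2662 and 92 in H2452, 0 or 1 in H28 and 1727 to 3906 in MSTO-211H. COL5A1, FN1 and PDGFRB also lay above on line means, and SNAI1, a transcriptional repressor of CDH1, was at 137 to 377 CP20M against 17 to 158. VIM (vimentin) lay below with THY1, with means of 24698 CP20M in MPP89 and 13571 in MeT-5A, against 35474 to 61650. Members of this list thus lay on either side.

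Of 21 Hippo pathway genes and YAP targets, 4 lay above and 0 below, 19% beside 14.1% of all genes. TEAD2, a transcription factor partner of YAP, was at 1269 and 1298 CP20M in MPP89 and 1070 and 1309 in MeT-5A, against 21 to 341. TEAD3 was at 853 to 1418 CP20M against 160 to 628. CTGF, a YAP target, was at 3720 and 4490 CP20M in MPP89 and 15489 and 17803 in MeT-5A, against 85 to 2640. AJUBA was the other member above. NF2 itself varied, with means of 759 CP20M in MPP89, 5116 in MeT-5A and 356 in H2052, and it is altered in MPP89 and H2052.

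Interferon-stimulated genes had the median difference of 1.73, yet 5 of 31 (16.1%) lay above and 0 below, close to the 14.1% of all genes. MPP89 stood 2.62 above the RB-functional mean on the log2 scale and MeT-5A 0.40. The RB-functional lines were widely spread, with list medians of 4.59 to 5.00 in H28 and 8.50 to 10.2 in H2452 on the log2(CP20M + 10) scale. OASL was at 602 and 605 CP20M in MPP89 and 543 and 381 in MeT-5A, against 2 to 3 in H28 and up to 421 in H2452. ISG15 was at 4653 and 3934 CP20M in MPP89 and 1090 and 993 in MeT-5A, inside the range of H2452, whose highest library had 1200. CMPK2, IFI44 and IRF9 were the others above.

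Of 15 MHC class I genes, 0 lay above and 1, ERAP1, lay below (6.67%, beside 6.01% of all genes). Of 6 APOBEC3 genes tested, APOBEC3A and APOBEC3B lay above (33.3%, beside 14.1% of all genes) and APOBEC3D below (16.7%, beside 6.01%). APOBEC3A reached the filter in RB-inactive libraries alone and APOBEC3D in RB-functional libraries alone. APOBEC3A, a cytidine deaminase, was at 82 and 115 CP20M in MPP89 and 92 and 134 in MeT-5A, against 17 to 68. Near-identical stretches in this family can split reads between its members.

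Of 19 germline and meiosis genes listed, 9 were tested, and 3 meiotic genes lay above (33.3%, beside 14.1% of all genes) and 0 below. SYCP2 and SYCE2 reached the filter in RB-inactive libraries alone, so the count is not evidence on the list. SYCP2, a synaptonemal complex gene, was at 338 and 409 CP20M in MPP89 and 259 and 265 in MeT-5A, against 9 to 74. STAG3, the meiotic cohesin subunit, was at 1234 and 1697 CP20M in MPP89 and 1166 and 530 in MeT-5A, against 68 to 339. SYCE2 was at 62 to 111 CP20M against 17 to 60, and all 3 separated every library.

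Of 18 Polycomb genes, 3 lay above (JARID2, CBX7 and RING1) and 0 below, 16.7% beside 14.1% of all genes, and 0 did so under the other scalings. EZH2, an E2F target of that list, had means of 686 CP20M in MPP89 and 2088 in MeT-5A and did not separate the lines. None of the 5 neuroendocrine genes tested lay on a single side, and NEUROD1 and INSM1, which did not reach the filter, had at most 2 CP20M in any library. None of the 4 blood and vessel markers tested did either.

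The palbociclib libraries come from the same lines, so they are a description. They are 2 of MPP89, 1 of MeT-5A and 11 of the RB-functional lines, all at 1 µM. Of the 2451 genes above at baseline, 2183 (89.1%) had both RB-inactive lines under palbociclib above all 4 RB-functional control means, beside 2% of genes on neither side at baseline. These control means are the ones that the selection used. Of the 1045 genes below, 897 (85.8%) stayed below in this sense, beside 1.34% of genes on neither side. With palbociclib on both sides, 1961 genes above (80%) and 551 genes below (52.7%) kept their side. Of all genes tested, 21.2% lay above and 5.4% below under palbociclib. Of the 13883 genes on neither side at baseline, 388 (2.79%) then lay below and 1724 (12.4%) above.

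Cell cycle genes were among those that then lay above. Under palbociclib, 28 of 34 E2F targets, 25 of 26 replication genes and 29 of 29 mitotic genes lay above, with median differences of 2.19, 2.01 and 3.31, beside 21.2% of all genes and a median of 0.32. The list medians of MPP89 and MeT-5A hardly moved, as for the mitotic genes in MPP89, with 11.1 and 11.2 in DMSO and 11.2 in both palbociclib libraries. Those of H2452 went from 10.4 to 10.9 down to 7.08 to 7.61. MYBL2 was at 3605 and 3046 CP20M in MPP89 and at 19167 in MeT-5A under palbociclib, and its class difference grew from 2.98 to 5.93. The palbociclib difference was not tested here.

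**Figure D4:**
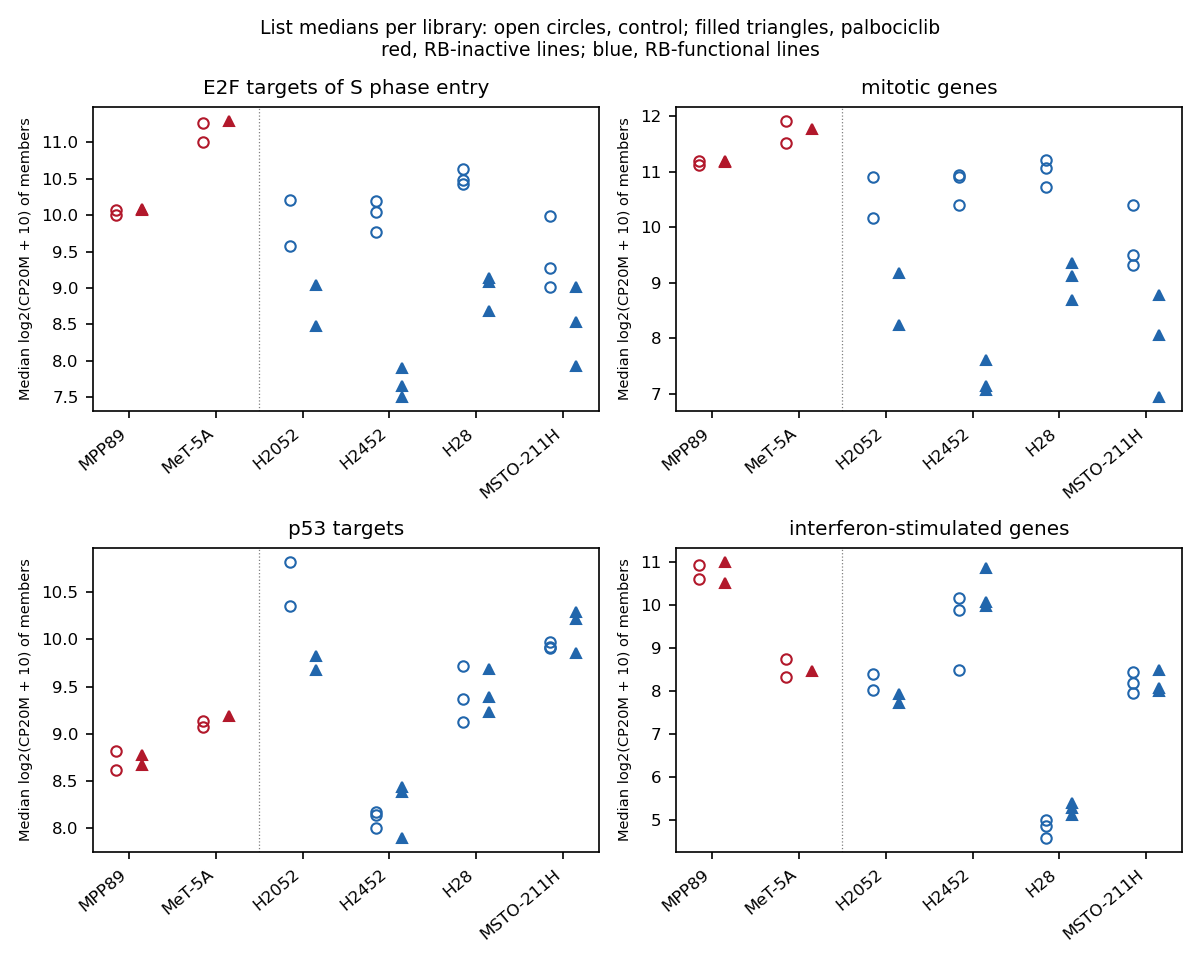
Median log2(CP20M + 10) of the tested members of 4 lists in each library, lines on the horizontal axis; open circles are control and filled triangles palbociclib libraries, red for RB-inactive and blue for RB-functional lines. In every RB-functional line the mitotic medians under palbociclib lie below those in DMSO, while those of MPP89 stay at 11.1 to 11.2, and the p53 target medians of H2452 lie below those of MPP89.

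The separated genes were spread unevenly over the chromosomes. On chromosome 14, 216 of 566 genes tested (38.2%) lay above and 4 below. The shares above were 31.6% on chromosome 19, 31.3% on chromosome 20 and 23.2% on chromosome 6, beside 14.1% in all, and 3.73% on chromosome 11. Genes below made up 15.9% of chromosome 2, 12.7% of chromosome 12 and 11.1% of chromosome 5, beside 6.01% in all. The median gene of chromosome 14 was 0.71 above the RB-functional mean in MPP89 and 0.86 in MeT-5A on the log2 scale. On chromosome 2 these medians were -0.31 and -0.16. On chromosome 20 they were 0.39 and 1.03, so MeT-5A stood out there, and on chromosome 6 they were 0.62 and 0.27, with MPP89 ahead. Chromosome 14 kept the highest share above under median-of-ratios (27.9%) and upper-quartile scaling (20%). MYBL2, E2F1, UBE2C and SYCP2 lie on chromosome 20, LIN52, POLE2, XRCC3 and HSPA2 on chromosome 14, and CCNE1, MYH14, TEAD2 and PEG3 on chromosome 19.

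**Figure D5:**
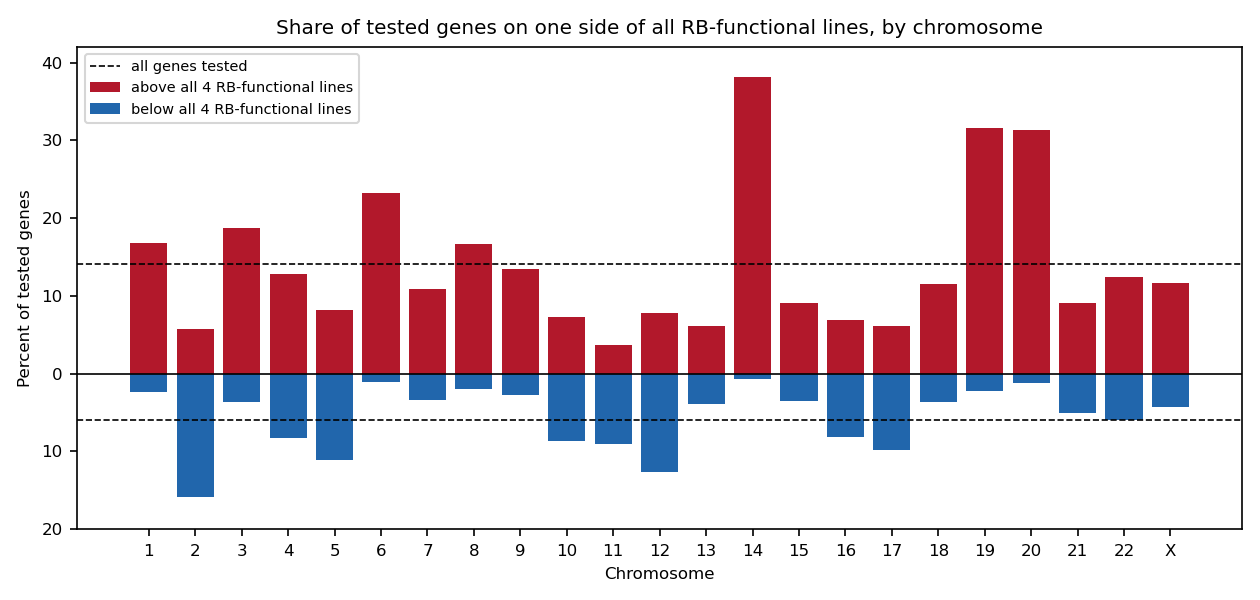
Percent of the genes tested on each chromosome whose RB-inactive line means lie above (red, up) or below (blue, down) all 4 RB-functional line means; dashed lines mark 14.1% and 6.01%, the shares of all genes. Chromosomes 14, 19 and 20 have the highest shares above, with 38.2%, 31.6% and 31.3%, and chromosome 2 has the highest share below, with 15.9%.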

How the data were processed

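The members and gene lists were chosen with earlier results of these data known. The authors prepared directional libraries, trimmed reads with Trimmomatic 0.36, mapped them with STAR 2.5.3 to GRCh38, counted them per gene with HTSeq 0.9.1 and used DESeq2. The deposited values are a normalized score: counts scaled to 20000000 reads per library (CP20M) and rounded up, so no count model was used here. The 6 line means of log2(CP20M + 10) were compared in R 4.3.3 by a linear model of limma 3.58.1 whose eBayes step used a trend, with Benjamini-Hochberg adjusted p-values, and single genes by two-sided exact permutation tests. The functions were tested on simulated data. The study describes the replicates of a line as independent experiments. Positions are from GENCODE 44 of GRCh38, which held 57532 of the 58302 identifiers, a later release than the authors' annotation.

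Genes named are the regulators and chromosome 9p genes listed, up to 4 members of each other list per side with a gap over 1.5-fold, the 10 widest gaps per side among genes separating every library, and up to 10 limma calls per side. TLL1 and H19, which complete the limma calls, other members given by name or mean, imprinted genes and contractile genes were chosen after their values were seen. Alternatives were pseudocounts of 1 and 50, other filters and scalings, 9-day libraries, leaving out each library and line, eBayes without trend, and fits over 15 libraries. A fit with median-of-ratios scaling and the line as a random block was added after seeing the data. Results on some genes are not reported here. Figures were drawn with matplotlib 3.10.9.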

Additional observations from a re-analysis of the deposited data

Results flagged for a closer look

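Among 88 named genes, 7 had 1 RB-functional line far from the other RB-functional lines by Dixon's criterion, which chance meets in about 1 of 20 groups. That rate does not hold where the other RB-functional lines are all at 0. Any value above 0 is then flagged, as was the case for CDKN2A, CDKN2B-AS1, DMRTA1 and MYH14. On line means, CDKN2A was at 26 CP20M in MSTO-211H and CDKN2B-AS1 at 85.3 CP20M, and both were at 0 in the other RB-functional lines. DMRTA1 was at 51.7 CP20M in H28 and at 0 in the others. CDKN1A was at 141 CP20M in H2452 against 6093 to 8883. APOBEC3A was at 59.5 CP20M in H2052 against 22.7 to 26. SERPINB9 was at 19.7 CP20M in H2452 against 0.667 to 1.5. MYH14 was at 0.333 CP20M in H28, from a single library at 1 CP20M, and at 0 in the others.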

How the results depend on the processing

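With 2 lines against 4, the counts changed more with the lines and the scaling than with single libraries. Leaving out a line loosens the rule of separation. Counts of separated genes then rise by design, and these rises are no test of the lines. The 2451 genes above, of 17379 tested, became 6250 of 44668 with no filter. They became 1129 with upper-quartile scaling, 5140 without the line MPP89 and 3767 without MeT-5A. The 1045 genes below became 1829 with median-of-ratios and 2528 with upper-quartile scaling, 2160 without MPP89, 2637 without MeT-5A and 1736 without H28. The 1165 genes above in every library became 743 with median-of-ratios and 541 with upper-quartile scaling, 3112 without MPP89, 2398 without MeT-5A and 1788 without MSTO-211H. The 382 below in every library became 723 and 1175 with these scalings, 608 with 9-day libraries only, and 1048, 1277, 596, 638 and 770 without MPP89, MeT-5A, H2052, H2452 and H28. limma called 12 genes higher, and 0 with a pseudocount of 1, 19 with 50, 30 with no filter, 7 with a filter on line means, 5 with either other scaling, 7 with 9-day libraries, 0 without MPP89, MeT-5A, H2052 or H2452, 5 without H28, 6 without MSTO-211H and 25 without trend. Leaving out 1 library gave 7 to 14 such calls, and 7 came without MSTO-211H replicate 1.

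Fits over the 15 libraries with the line as a random block (correlation within a line 0.875) called 94 genes higher and 13 lower, and 78 and 17 with median-of-ratios scaling. Adding a replicate block gave 46 higher and 6 lower, beside 12 and 0. The class varies only between lines, so the larger counts of the fits over libraries are not further evidence on it. limma on line means called 1 gene lower without MSTO-211H. Libraries with the same replicate number had correlated deviations of -0.05 to 0.35 over 23 pairs, and 10 of 13 correlated best with their own number, a hint from the data and no pairing in the design.

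Of 3131 recomputed differences of 95 named genes, 2952 kept their direction and side of the threshold, 128 lost and 45 gained a call, and 6 changed sign. Without MPP89 these were RB1 (1.28) and RBL2 (0.01). The others were HACD4 (1.36 without MeT-5A), MEG3 (-0.45 without H2452 and -0.13 without H28) and PEG10 (-1.24 without H2452). The cause was not tested. Depth could not be read from the scaled totals, so no counting interval is given.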
